A study of Mus musculus with 4 samples.

Results

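Germinal centre dark zone spots are the array positions to which the authors gave the final region name DZ in 4 sections of mouse draining lymph node. They numbered 539 of 7271 spots, of which sections A to D held 121, 156, 139 and 123. The light zone (LZ) of the same germinal centres, the main comparison, had 414 spots. On the array used here (Visium), RNA is captured by barcoded spots beneath a tissue section, and each spot samples a small region that may hold more than 1 cell type.

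All 4 sections belong to 1 group. The lymph nodes came from mice 14 days after immunization and after 3 days of gavage. They were snap frozen, cut as sections of 10 µm lying 50 µm apart, permeabilized for 18 min and amplified in 16 PCR cycles. For the immunogen, the gavaged agent, the strain, the age and the number of animals, no entry was given in the sources used here. The section identifiers share 1 stem, and the section names in the deposited table end in eYFP, which the labels do not explain. The p-values and SDs below therefore cover variation between neighbouring cuts only, which may be technical.

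The germinal centre is the structure in which B cells responding to antigen divide, mutate their antibody genes and are selected. Division and mutation take place mainly in the dark zone, where B cells are held by the chemokine receptor CXCR4, while selection by T cells and follicular dendritic cells takes place in the light zone. Plasma cells, the antibody-secreting descendants of these B cells, collect in the medulla, and the title of the series concerns the border between dark zone and medulla.

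The dark zone name could not be checked against Cxcr4, Mki67, Top2a and Foxo1, because values of single genes were not analysed here. Neither the rule by which spots were named nor the genes behind each score were given in the sources used here, and the naming may rest on expression. All 539 DZ spots lay in 1 finer expression cluster of 953 spots that also held every LZ spot, so that clustering did not separate the 2 zones. The germinal centre score (deposited as Mo_GC_vs_Mem) was highest in DZ among 8 regions in 4 of 4 sections. LZ came next in each section, with DZ above it by only 0.00157 to 0.0121, so this score did not set DZ apart from LZ. A score is a relative expression value of a gene list with no true zero, so only differences between scores are given.

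Section totals ranged from 8016778 to 20518149 UMIs, the molecular barcodes that stand for captured transcripts, and DZ spots held between 10.03% and 11.96% of them. DZ spots averaged 13828, 14485, 6933 and 6536 UMIs in sections A to D, which makes A and B the deeper sections. Because depth differed between sections, every difference was formed within a section. In each section the tissue formed 2 pieces, and the lower piece held 326 of the DZ spots.

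The map of the array shows how the dark zone spots lay. Connected DZ and LZ spots formed 70 patches over the 4 sections, of which 57 held DZ spots. In 43 patches both zones were present, 14 held DZ alone (60 DZ spots) and 13 held LZ alone. The 57 patches with DZ spots had 1 to 56 spots of either zone with a median of 14, and the patch richest in dark zone had 34 DZ spots. A patch may be a cut through the same germinal centre as a patch of the next section, so patches were counted and never used as replicates. DZ made up 58.7%, 58.9%, 57.9% and 50.8% of germinal centre spots in sections A to D.

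**Figure D1:**
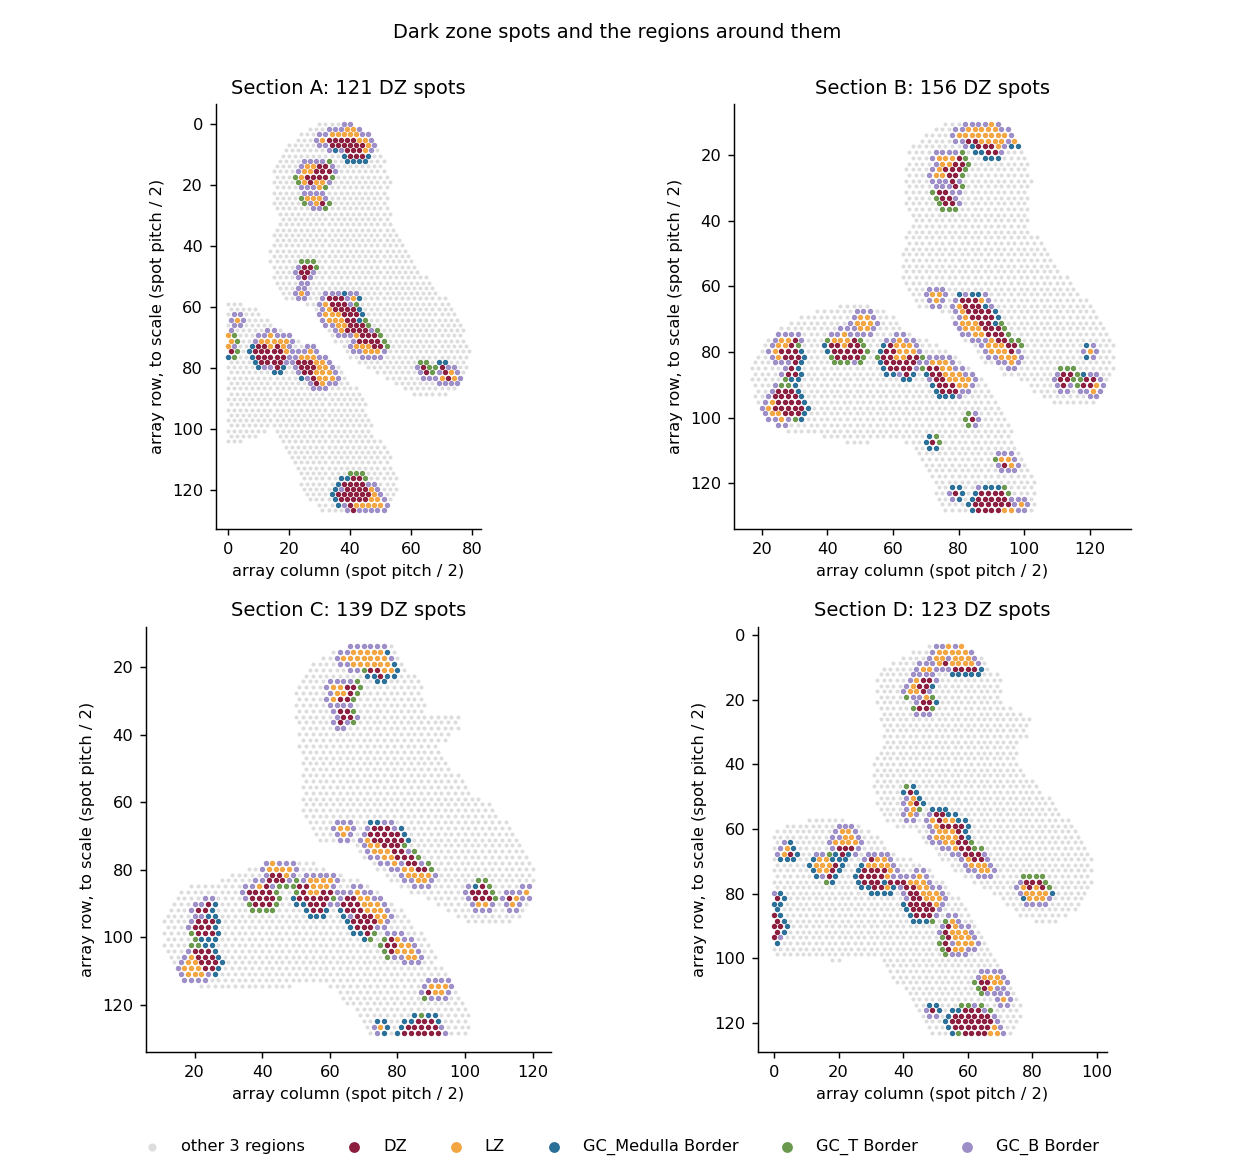
Position of DZ, LZ and border spots on the capture array, by section, with array column and row on the axes drawn to scale and all other spots in grey. The 539 DZ spots form 57 patches in 2 tissue pieces per section, mostly with LZ spots beside them and border spots around them.

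Dark zone spots had a lower percentage of mitochondrial transcripts than light zone spots in 4 of 4 sections. Mitochondrial UMIs, which come from genes of the mitochondrial genome that encode parts of the respiratory chain, made up 3.899% of UMIs in DZ against 4.70% in LZ in section A, 3.42% against 4.88% in B, 2.57% against 3.99% in C and 3.17% against 4.32% in D. No DZ section mean reached the lowest LZ section mean. The difference was -1.21 ± 0.304 percentage points (SD, n = 4 sections), with a DZ to LZ ratio of 0.727 ± 0.0777 (exact sign-flip permutation p = 0.125, adjusted p = 0.179 over 10 comparisons). With 4 sections 0.125 is the smallest p the two-sided test can give, so the number of sections with 1 direction stands in place of a call throughout. DZ had the lowest mitochondrial percentage of the 8 regions in 4 of 4 sections.

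Ribosomal transcripts, by the column name those of ribosomal genes, which include the protein components of the ribosome, were also a smaller part of the dark zone library. They made up 20.7%, 19.3%, 17.6% and 17.9% of DZ UMIs in sections A to D, against 22.8%, 20.97%, 19.98% and 19.6% of LZ UMIs. DZ was lower than LZ in each section, although the levels of the zones overlapped between sections. The difference was -1.95 ± 0.337 percentage points and the ratio 0.906 ± 0.0176, lower in 4 of 4 sections (exact p = 0.125, adjusted p = 0.179). Among the 8 regions, Medulla and GC_Medulla Border were lower than DZ and the others higher, in 4 of 4 sections.

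**Figure D2:**
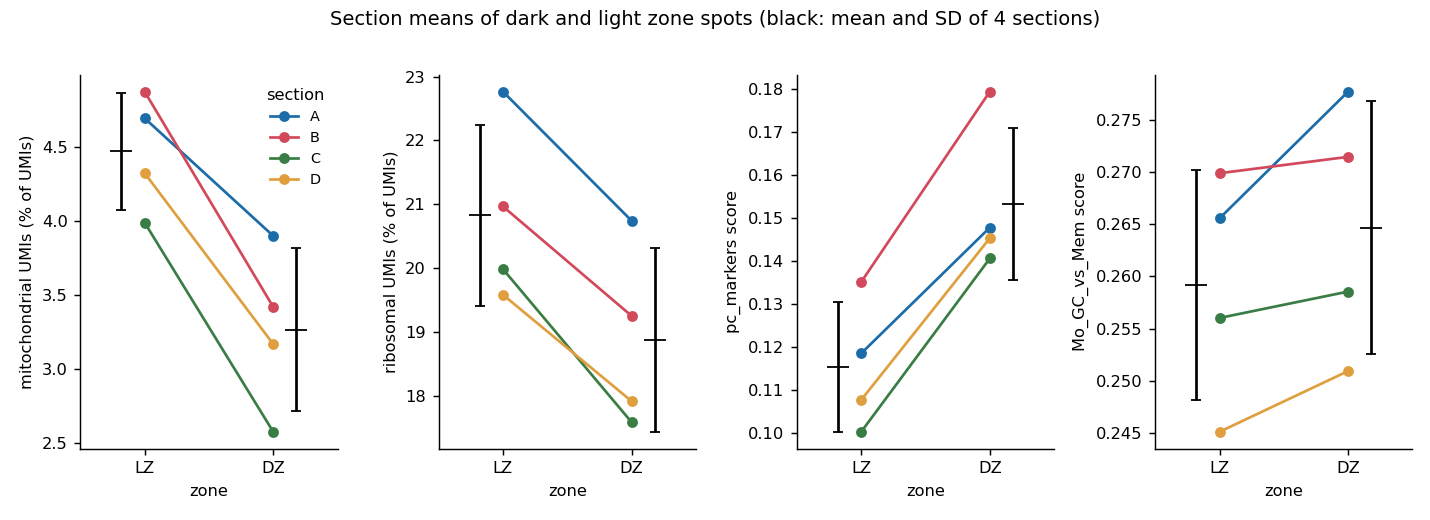
Section means of LZ and DZ spots for the percentage of mitochondrial UMIs, the percentage of ribosomal UMIs and the scores pc_markers and Mo_GC_vs_Mem, 1 line per section, with the mean and SD of the 4 sections in black. The vertical axes do not start at 0. Both percentages fall from LZ to DZ in every section and pc_markers rises in every section, while Mo_GC_vs_Mem rises by 0.00157 to 0.0121.

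Score differences between whole zones were mixed in direction. The plasma cell marker score (pc_markers, read by its name) averaged 0.148, 0.179, 0.141 and 0.145 in DZ of sections A to D against 0.119, 0.135, 0.1003 and 0.108 in LZ, a difference of 0.0378 ± 0.00636, higher in 4 of 4 sections. With medians over spots the difference was 0.0166 ± 0.0171, higher in 3 of 4, with section A at 0.113 in DZ against 0.121 in LZ. Mo_GC_vs_Mem was higher by 0.00551 ± 0.00477 in 4 of 4, but by 0.00330 without section A and with the opposite sign on percentile ranks. The other 4 scores have names ending in SC that the files do not spell out. Of these, Mo_CD34_SC was higher in DZ by 0.00374 and Mo_Nr4a1Inmt_SC differed by -0.00261, each with 1 direction in 4 of 4 sections, the former turning below 0 with medians over spots. Mo_Inmt_SC and Mo_Nr4a1_SC had no shared direction, and genes with a count differed by -134 ± 113 per spot, lower in 3 of 4 sections.

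Most individual DZ spots followed the section means. Of the DZ spots of a section, 91.3% ± 3.09 lay below the median LZ spot in mitochondrial percentage and 87.9% ± 7.96 did so in ribosomal percentage. Within DZ, single spots still ranged widely in mitochondrial percentage, from 2.31% to 6.74% in section A with a median of 3.76%, from 1.60% to 6.85% in B with a median of 3.24%, from 1.10% to 4.91% in C with a median of 2.46% and from 1.22% to 5.54% in D with a median of 3.05%. The single spots of the zones thus overlapped, and the shift lay in the bulk of the spots.

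Relative to the LZ level, the mean change in UMIs per spot was largest for mitochondrial transcripts. DZ spots held 535, 518, 182 and 208 mitochondrial UMIs in sections A to D, against 746, 800, 312 and 287 in LZ, a change of -33.2% ± 6.69. Ribosomal UMIs changed by -16.7% ± 4.50, and all other UMIs by -4.36% ± 4.29, with section D at 2.05%. The mitochondrial and ribosomal values were below 0 in 4 of 4 sections, whereas the remainder of the transcriptome was lower in 3 of 4. Total UMIs differed by -1031 ± 688 per spot, lower in 4 of 4 sections, but by 235.5 among spots that touched no border region, where the direction was split between sections. Fewer cells in a spot and less RNA per cell cannot be told apart in such data.

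The lower mitochondrial and ribosomal percentages held at each depth of spot. When the germinal centre spots of a section were divided into 3 equal groups by UMIs, the mitochondrial difference was -0.983 ± 0.658 percentage points in the lowest group, -1.24 ± 0.422 in the middle and -1.22 ± 0.201 in the highest, each below 0 in 4 of 4 sections. Section A stood apart in the lowest group with -0.0285. The ribosomal difference was -1.67 ± 0.423, -1.85 ± 0.321 and -1.87 ± 0.571, again below 0 in 4 of 4 sections each. A linear fit on log10 UMIs left them at -1.21 and -1.67 points. Here and below, this fit was made over all spots of a section, in all 8 regions. Its slope thus also holds differences between regions and is not the slope among DZ spots. Zone differences in the scores were uneven over the same groups. The pc_markers difference was 0.0719 ± 0.0104 in the lowest group and 0.0305 ± 0.0127 in the middle, above 0 in 4 of 4 sections each, but 0.00461 ± 0.0130 in the highest, above 0 in 3 of 4, with section A at -0.00977. The Mo_GC_vs_Mem difference was -0.00496 ± 0.0103 in the lowest group, above 0 in 2 of 4 sections, then 0.0123 ± 0.00423 and 0.0254 ± 0.0131, above 0 in 4 of 4 each. Whether the scores' difference changed between the UMI groups was not tested.

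Inside single germinal centre patches with enough spots of each zone, both percentages were again lower in DZ in nearly every case. In 33 patches with at least 3 spots of each zone, DZ had the lower mitochondrial percentage in 32 and the lower ribosomal percentage in 33. The median patch difference was -1.07 points for mitochondrial and -1.71 points for ribosomal UMIs. The exception among these 33 was a patch of 32 spots in the lower piece of section A, where the mitochondrial percentage of DZ exceeded that of LZ by 0.413 points. Patches with both zones but fewer spots of a zone were left out. Among them the mitochondrial difference was 0.0301, 0.497 and 0.513 points in patches with 1, 1 and 19 DZ spots. The first 2 also had ribosomal differences above 0, at 0.294 and 0.0641 points. All other differences there were below 0. Averaged within patches first, the section differences were -1.11 ± 0.186 and -1.72 ± 0.257 points. The score pc_markers was higher in DZ in 30 of the 33 patches, Mo_GC_vs_Mem in 19 and UMIs in 12.

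**Figure D3:**
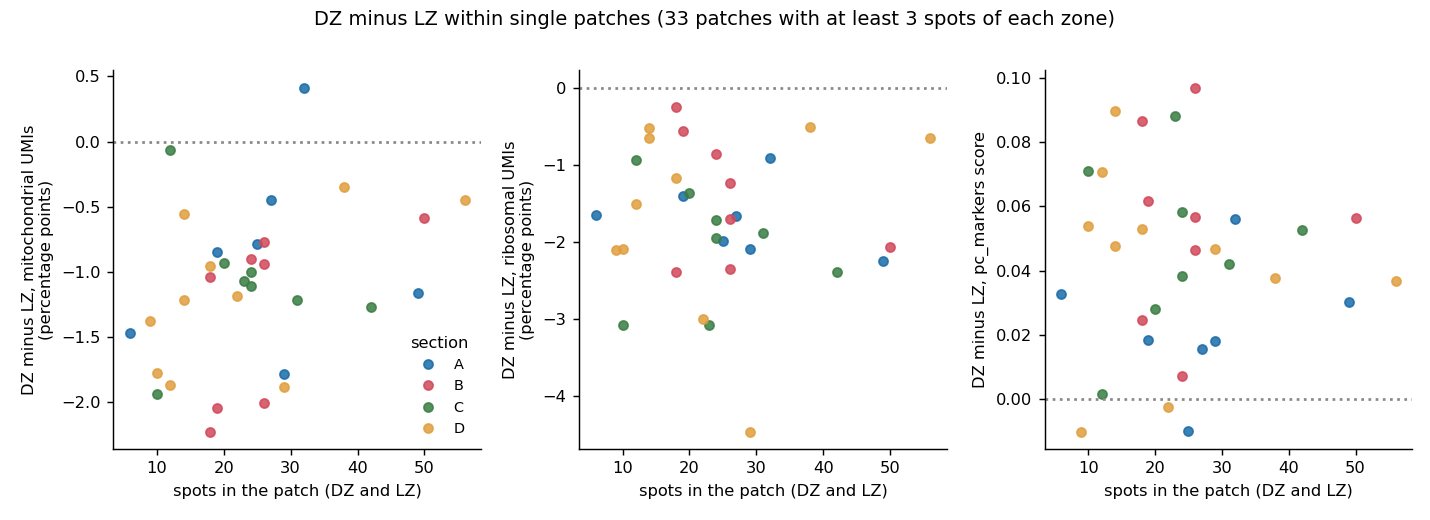
DZ minus LZ within each of 33 patches, against the number of spots in the patch, for mitochondrial and ribosomal UMIs in percentage points and for the pc_markers score, with 1 point per patch coloured by section and a dotted line at 0. Mitochondrial differences lie below 0 in 32 patches, ribosomal differences in 33, and pc_markers differences lie above 0 in 30.

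Across the boundary from light to dark zone, both percentages stepped down. Spots were ordered by the number of array steps to the nearest spot of the other zone in their patch. Mitochondrial UMIs averaged 4.71% in LZ spots 2 steps from DZ, 4.28% in LZ spots 1 step from it, 3.53% in DZ spots 1 step from LZ, 3.09% in DZ spots at 2 steps and 3.21% at 3 steps. The step between adjoining DZ and LZ spots was -0.756 points, below 0 in 4 of 4 sections, and thus smaller than the difference between whole zones; this comparison of adjoining spots was chosen after the data had been seen. Ribosomal UMIs averaged 21.2%, 20.4%, 19.2%, 18.9% and 18.5% at the same positions, with a step of -1.15 points between adjoining spots. A spot covering the boundary can capture both zones, and the part of such mixing was not tested.

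**Figure D4:**
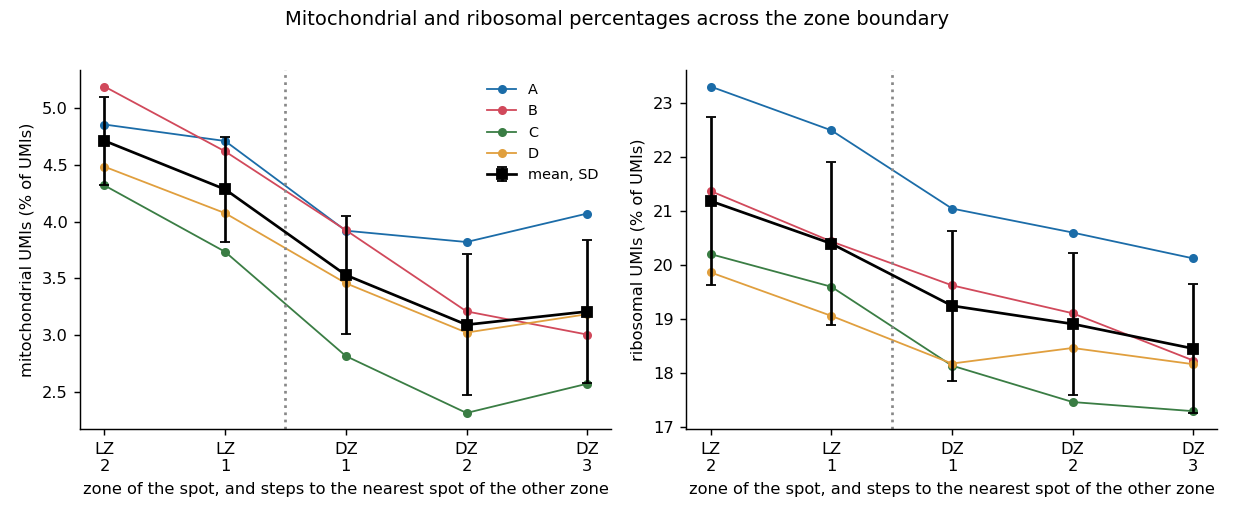
Percentage of mitochondrial and ribosomal UMIs in LZ and DZ spots by steps to the nearest spot of the other zone, with thin lines for the sections and black squares with bars for the mean and SD of the 4 sections; the dotted line is the zone boundary and the vertical axes do not start at 0. Mean mitochondrial UMIs fall from 4.71% in LZ at 2 steps to 3.09% in DZ at 2 steps, and ribosomal UMIs from 21.2% to 18.9%.

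Away from all border regions, DZ spots next to LZ stood nearer to the light zone values than DZ spots without an LZ neighbour. Their mitochondrial percentage was 3.97% against 3.75% in section A, 3.78% against 3.25% in B, 3.00% against 2.31% in C and 3.70% against 2.88% in D. The difference was 0.567 ± 0.262 points, higher in 4 of 4 sections (exact p = 0.125, adjusted p = 0.536 over 10 comparisons). For ribosomal UMIs it was 1.24 ± 0.291 points, again in 4 of 4, and 0.819 points with log10 UMIs fitted. These were 2 of the 10 measures, and in the other 8 the sections did not share a direction.

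Position in the patch divided the dark zone more strongly in its scores. A DZ spot was called rim where any of its 6 neighbours belonged to a border region (GC_Medulla Border, GC_T Border or GC_B Border) and interior where none did, which gave 364 rim and 175 interior spots. The rim share of DZ was 58.7%, 66.7%, 73.4% and 70.7% in sections A to D, against 84.7%, 76.1%, 78.2% and 82.4% of LZ. LZ was thus the more exposed zone in each section.

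The plasma cell marker score was higher at the dark zone rim than in the interior. It averaged 0.182 against 0.0992 in section A, 0.212 against 0.114 in B, 0.157 against 0.0942 in C and 0.168 against 0.0894 in D. The lowest rim mean exceeded the highest interior mean. The difference was 0.0807 ± 0.0141, higher in 4 of 4 sections (exact p = 0.125, adjusted p = 0.139 over 10 comparisons), and 0.0747 ± 0.0144 with log10 UMIs fitted.

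Mo_GC_vs_Mem went the other way. Rim spots averaged 0.258, 0.257, 0.245 and 0.234 in sections A to D and interior spots 0.306, 0.300, 0.295 and 0.291, with no overlap. The difference was -0.0493, below 0 in 4 of 4 sections, and -0.0323 after the fit on log10 UMIs. Rim spots averaged 12185, 13981, 6287 and 5822 UMIs against 16161, 15493, 8714 and 8262 in the interior, a difference of -2589, so depth moved with position in each section.

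Each of the 4 scores ending in SC was higher at the rim in 4 of 4 sections. Mo_CD34_SC differed by 0.0224 ± 0.000867, with 0.0215, 0.0227, 0.0219 and 0.0234 in sections A to D. Mo_Inmt_SC differed by 0.0186, Mo_Nr4a1Inmt_SC by 0.0131 and Mo_Nr4a1_SC by 0.0122. With a rim of 2 steps, which leaves 14 interior spots in 3 sections, these 4 differences were 0.0133, 0.00993, 0.00331 and 0.00240, the last above 0 in 2 of 3 sections. With log10 UMIs fitted the differences were 0.0175, 0.0127, 0.00848 and 0.00908, above 0 in 4 of 4 sections each. The mitochondrial percentage, which separated DZ from LZ, moved little here. It was lower at the rim by 0.136 points on average, with -0.00236 in section A and -0.269 in B as the extremes. For the ribosomal percentage the sections did not share a direction, although it was 0.903 points higher at the rim in 4 of 4 sections after the fit on log10 UMIs. In all, 9 of 10 measures had 1 direction in 4 of 4 sections.

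Mean pc_markers and Mo_GC_vs_Mem within the dark zone were graded by the number of bordering neighbours. With 0, 1, 2, 3 and 4 or more neighbours in border regions, pc_markers averaged 0.0993, 0.129, 0.149, 0.210 and 0.235, and Mo_GC_vs_Mem averaged 0.298, 0.280, 0.264, 0.234 and 0.213. These means therefore changed in opposite order over the 5 classes. Mo_GC_vs_Mem kept its order in each section. The order of pc_markers broke in section A, from 0.129 to 0.125 between 1 and 2 neighbours. It also broke in B, from 0.247 to 0.223 between 3 and 4 or more. Spots touching several borders averaged 3.11 border neighbours, so number and kind of border were not separated here. The mitochondrial percentage had no such order, at 3.36%, 3.27%, 3.07%, 3.29% and 3.32%. A spot with more border neighbours may capture more of the border tissue, and the part of such mixing was not tested.

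For several scores the comparison of dark with light zone differed between interior and rim, whereas for both percentages it kept its direction. Among interior spots (175 DZ, 82 LZ), pc_markers differed by -0.00378 ± 0.0110 between the zones and was higher in DZ in 1 of 4 sections. Among rim spots (364 DZ, 332 LZ) it was higher in DZ by 0.0612 ± 0.00791 in 4 of 4. The zone difference in this score was thus met at the rim and had no shared direction in the interior. The rims differed in the kind of border touched, with 93 of the DZ and 289 of the LZ rim spots touching only GC_B Border. The change in the zone difference from interior to rim was 0.0783, 0.0743, 0.0417 and 0.0656 in sections A to D, with a mean of 0.0650 ± 0.0164 (exact p = 0.125, adjusted p = 0.156 over 10 comparisons).

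Mo_GC_vs_Mem was higher in interior DZ than in interior LZ by 0.0212 ± 0.00732 in 4 of 4 sections, and lower in rim DZ than in rim LZ by 0.00606 ± 0.00130 in 4 of 4 (-0.00606 as DZ minus LZ). The zone difference in this score thus changed sign between the interior and the rim, with a change of -0.0273 ± 0.00736. Mo_CD34_SC, Mo_Inmt_SC and Mo_Nr4a1_SC were lower in DZ than in LZ in the interior, by -0.00683, -0.00845 and -0.00531, and higher in DZ at the rim, by 0.00988, 0.00515 and 0.00206, each in 4 of 4 sections. The mitochondrial difference was -1.20 ± 0.503 points in the interior and -1.22 ± 0.276 at the rim. The ribosomal difference was -1.57 ± 0.519 and -1.99 ± 0.363 points. Their change between positions was -0.0225 ± 0.267 and -0.413 ± 0.465 points, with no shared direction over sections.

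Comparing only spots that touched GC_B Border and no other border (93 DZ, 289 LZ) matched the kind of border touched. The amount was not matched, with 1.99 ± 0.122 border neighbours per spot in DZ and 2.55 ± 0.113 in LZ, fewer in DZ in 4 of 4 sections. There DZ was lower than LZ by 1.31 ± 0.203 points in mitochondrial UMIs (-1.31 as DZ minus LZ) and by 1.72 ± 0.565 points in ribosomal UMIs (-1.72), in 4 of 4 sections each. The pc_markers score was higher in DZ by 0.0170 ± 0.0135 and Mo_GC_vs_Mem by 0.0130 ± 0.00792, also in 4 of 4. Here the germinal centre score was again higher in the dark zone, although these were rim spots. Mo_CD34_SC, Mo_Inmt_SC and Mo_Nr4a1_SC differed by -0.00160, -0.00224 and -0.00135, without a direction shared by all sections.

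Dark zone spots were next divided by which border they touched. In all, 84 touched only GC_Medulla Border, 32 only GC_T Border, 93 only GC_B Border and 155 more than 1 of the 3. No DZ spot (0 of 539) adjoined a spot named Medulla. Section A had 2 spots touching only GC_T Border and did not enter comparisons of that class, which rest on 3 sections with a smallest possible p of 0.25.

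Contact with the medulla border alone went with high pc_markers and low depth. The 84 spots numbered 9, 26, 20 and 29 in sections A to D. They averaged 0.221, 0.238, 0.158 and 0.170 in these sections against the interior values of 0.0992, 0.114, 0.0942 and 0.0894, without overlap. The difference was 0.0976 ± 0.0300, higher in 4 of 4 sections (exact p = 0.125, adjusted p = 0.234 over 30 comparisons). Mo_GC_vs_Mem differed by -0.0559, and by -0.0270 after the fit on log10 UMIs, below 0 in 4 of 4 both ways. UMIs differed by -4285 per spot. The ribosomal percentage differed by -0.775 points in 4 of 4 sections, but by 0.347 after the fit on log10 UMIs. As that fit spanned all regions, the part of depth among DZ spots alone in this change was not tested.

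In mean differences from the interior, the other contacts had the same directions in the scores. The sections used shared them except in Mo_Inmt_SC at the B border, higher in 3 of 4. Spots touching only GC_T Border had pc_markers of 0.221, 0.191 and 0.147 in sections B, C and D, a difference of 0.0870 ± 0.0255 from the interior, higher in 3 of 3 sections (exact p = 0.25). Spots touching only GC_B Border averaged 0.119, 0.145, 0.135 and 0.138 in sections A to D, a difference of 0.0347 ± 0.0124, higher in 4 of 4. B border contact thus had the smallest of these mean differences. Its Mo_GC_vs_Mem difference was -0.0274. Its mitochondrial difference was -0.283 points and its ribosomal difference 0.653 points, each with 1 direction in 4 of 4 sections. Spots touching several borders differed from the interior by 0.101 ± 0.0253 in pc_markers.

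**Figure D5:**
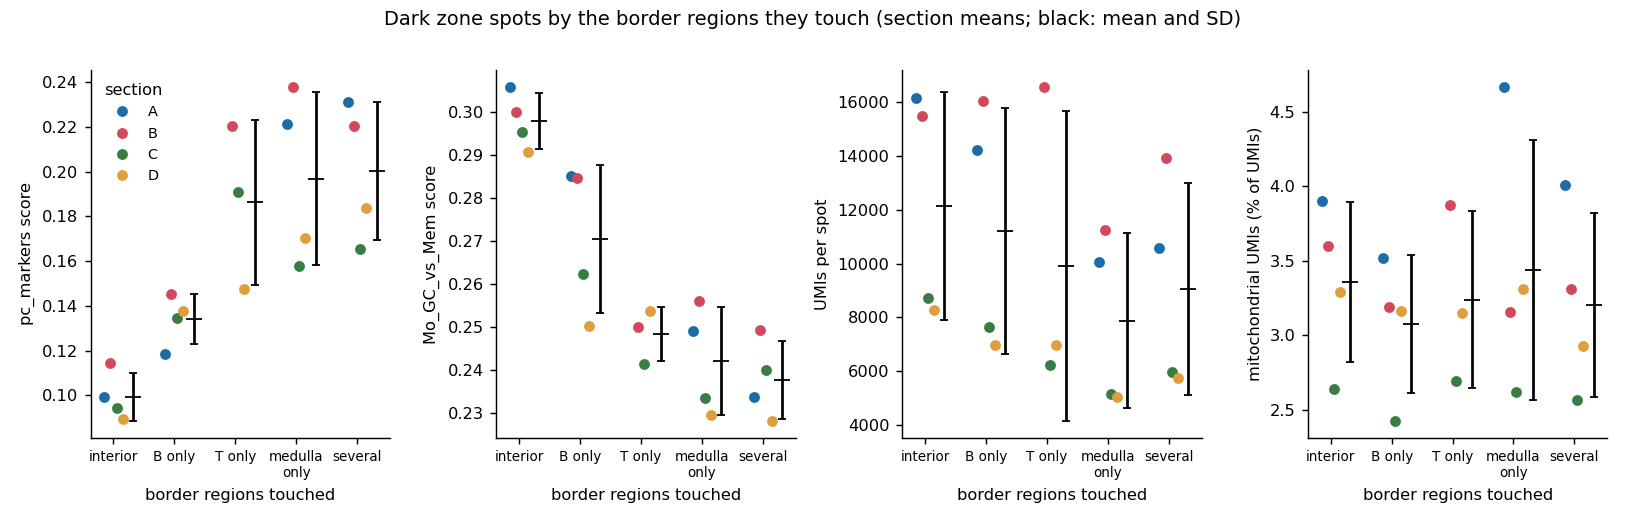
Section means of DZ spots by the border regions touched (none, GC_B Border only, GC_T Border only, GC_Medulla Border only, several) for pc_markers, Mo_GC_vs_Mem, UMIs per spot and the percentage of mitochondrial UMIs, with the mean and SD over sections in black; section A is left out of the GC_T Border class and the vertical axes do not start at 0. The pc_markers means rise from 0.0993 in interior spots to 0.134 in spots touching only the B border and 0.197 in those touching only the medulla border, while mitochondrial percentages overlap in all classes.

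Tested against each other, medulla contact exceeded B contact in pc_markers. The differences were 0.103, 0.0928, 0.0233 and 0.0329 in sections A to D, with a mean of 0.0629 ± 0.0406, higher in 4 of 4 sections (exact p = 0.125, adjusted p = 0.417 over 30 comparisons). Sections A and B thus had the larger values, although the medulla class of section A held only 9 spots. The classes also differed in how much border they touched, with 2.23 bordering neighbours per spot at the medulla border and 1.99 at the B border. When only spots with 1 or 2 bordering neighbours were kept, an alternative chosen after the data had been seen, the difference was 0.0216 and above 0 in 2 of 4 sections.

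Medulla contact differed from B contact by -3343 UMIs per spot, lower in 4 of 4 sections. Mo_GC_vs_Mem differed by -0.0285 in 4 of 4 sections, but by -0.00572 in 2 of 4 after the fit on log10 UMIs. The ribosomal percentage differed by -1.43 points and Mo_CD34_SC by 0.0186, each with 1 direction in 4 of 4 sections. After the fit these were -0.514 points and 0.0118, with the directions kept. The pc_markers difference kept its direction too, at 0.0534 in 4 of 4 sections after the fit. Mo_Inmt_SC and Mo_Nr4a1Inmt_SC, higher by 0.0136 and 0.0137 in 4 of 4, were higher by 0.00537 and 0.00719 in 3 of 4 after it.

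Between medulla and T contact pc_markers did not separate. The differences were 0.0173, -0.0328 and 0.0230 in sections B, C and D, with a mean of 0.00247 ± 0.0307, and without section B or without section D the mean was below 0 (-0.00494 and -0.00777). The spread between the 3 sections exceeded this mean. T contact exceeded B contact by 0.0472 ± 0.0337 in 3 of 3 sections (0.0755, 0.0561 and 0.00990), and by 0.0156 in 2 of 3 with 1 or 2 bordering neighbours only.

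Dark zone spots of large patches were compared with those of small ones. The 21 patches of 20 or more spots held 373 DZ spots, or 69.2% of them. Mo_GC_vs_Mem was higher in large patches by 0.0229, 0.0219, 0.0219 and 0.0362 in sections A to D, a mean of 0.0257 ± 0.00701, in 4 of 4 sections (exact p = 0.125, adjusted p = 0.25 over 10 comparisons). Among rim spots alone the difference was 0.0124 and among interior spots alone 0.0262, above 0 in 4 of 4 sections each. Small patches held few interior spots. In section A these came from a single patch of 19 spots, where 50% of the 10 DZ spots touched a border. Number and kind of border neighbours were not matched among rim spots, so the part of position in these differences was not tested.

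The plasma cell marker score was lower in large patches, by -0.0607, -0.0488, -0.000948 and -0.0493 in sections A to D. Section C showed almost none of this. The mean was -0.0400 ± 0.0266, below 0 in 4 of 4 sections. It was -0.0189 among rim spots, -0.0317 in patches with both zones and -0.00503 with large set at 40 or more spots, each above 0 in 1 of 4 sections. Rim spots were commoner in small patches, with 94.5% of DZ spots touching a border in patches of 1 to 9 spots, 71.0% in patches of 10 to 19, 59.5% in patches of 20 to 29 and 61.4% in those of 30 or more. The mitochondrial percentage differed by 0.0233 points between large and small patches, with no shared direction.

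Patches of 1 section also differed among themselves. Among the 23 patches with at least 10 DZ spots, mean mitochondrial percentage in DZ ran from 3.41% to 4.48% in section A (6 patches), from 2.48% to 4.54% in B (8), from 2.13% to 2.96% in C (6) and from 2.18% to 3.98% in D (3). The pc_markers means ran from 0.112 to 0.163, from 0.114 to 0.251, from 0.0955 to 0.153 and from 0.120 to 0.138. Section B had the widest range in both, over the most patches, while section D had the largest SD in mitochondrial percentage (0.916 against 0.636 in B).

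Spot by spot within the dark zone, the mitochondrial percentage ran only weakly with the scores. Spearman's rho over the 121 to 156 DZ spots of a section, which share a library and neighbouring tissue, averaged 0.0692 ± 0.141 between mitochondrial percentage and pc_markers. With Mo_GC_vs_Mem it averaged -0.0977 ± 0.0532, below 0 in 4 of 4 sections. It averaged 0.102 with Mo_CD34_SC, 0.0890 with Mo_Inmt_SC and 0.127 with Mo_Nr4a1Inmt_SC, above 0 in 4 of 4 each. With Mo_Nr4a1_SC it averaged 0.0708, above 0 in 3 of 4. These weak values are given as a description. Depth ran with Mo_GC_vs_Mem, at a rho with UMIs of 0.643, 0.338, 0.779 and 0.803 in sections A to D, and had no shared sign with the mitochondrial percentage, at -0.126, 0.424, 0.132 and -0.00376.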

How the data were processed

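Spatial expression was measured in 4 sections (n = 4) of mouse lymph node. Seurat 4.2.1, Space Ranger 1.3.1 and build mm10 appear in the submitters' processing notes, without settings. From the deposited table of spots, the raw counts (UMIs and genes with a count) and the percent of counts from mitochondrial and ribosomal genes were used as deposited. The 6 scores were used as the authors deposited them, per the file headers, with their gene lists not given. The alignment files were not used, and 0 spots were left out.

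Section means were differenced within sections and tested by an exact two-sided sign-flip permutation. All sign assignments were used, 16 with 4 sections and fewer with 3. Benjamini-Hochberg adjustment was made within each of 6 families, in Python 3.11.15 with pandas 2.3.3 and numpy 2.4.6. A section entered where both classes had at least 3 spots. Steps were counted on the hexagonal array, and patches are connected DZ and LZ spots. The comparisons of zones by position, of spots touching several borders and of UMI groups were added after seeing the data. Where adjusted p-values were formed for these, they come from families of their own. The code was tested on simulated data with planted shifts.

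DZ spots, lists and comparisons were chosen with earlier results of these data known. By the rule for named genes, every depth, mitochondrial, ribosomal and score column is named and no gene, since the table holds no single genes; the list of cell type markers was therefore not used. Alternatives tried were a minimum of 1000 UMIs, medians, percentile ranks, a fit on log10 UMIs over all spots of a section, tissue pieces, contact and patch definitions, and leaving out each section. Of these, 4 were chosen after seeing the data: adjoining DZ and LZ spots, spots with 1 or 2 border neighbours, and patch size among interior spots or in patches with both zones.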

Additional observations from a re-analysis of the deposited data

Results flagged for a closer look

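Of 80 results over 4 sections, 5 had a section whose gap to the others exceeded Dixon's 95% critical value, and chance marks about 1 in 20 such groups. Between DZ spots touching only the medulla border and those touching only the B border, section D stood apart in Mo_Nr4a1_SC with -0.00338, against 0.0148 to 0.0157 elsewhere, and in Mo_Nr4a1Inmt_SC with 0.00291, against 0.0166 to 0.0187. Between DZ spots of large and small patches, section D stood at 0.0362 in Mo_GC_vs_Mem, against 0.0219 to 0.0229, and section B at -0.00580 in Mo_CD34_SC, against -0.0112 to -0.0107. Between DZ spots touching several borders and interior DZ spots, section A stood at 0.0338 in Mo_Inmt_SC, against 0.0177 to 0.0199.

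For 4 scores the difference between dark and light zone had 1 sign in the interior and the opposite sign at the rim in every section. The change from interior to rim was -0.0273 for Mo_GC_vs_Mem, 0.0167 for Mo_CD34_SC, 0.0136 for Mo_Inmt_SC and 0.00736 for Mo_Nr4a1_SC, each with 1 direction in 4 of 4 sections (exact sign-flip permutation p = 0.125, adjusted p = 0.156 over 10 comparisons). The rims touched different borders, with 93 of 364 DZ and 289 of 332 LZ rim spots touching only GC_B Border. Among those spots the mean differences had the sign of the interior, at 0.0130, -0.00160, -0.00224 and -0.00135. Only the first had 1 direction in 4 of 4 sections.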

How the results depend on the processing

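Over 100 differences, 81 of 890 alternative values reversed direction, in 29 of them; among the 61 with 1 direction in every section, 13 values in 9 did. For DZ minus LZ, the mitochondrial (-1.40 to -0.756 points) and ribosomal (-2.04 to -1.15 points) differences reversed under none of 13 alternatives. Among interior spots the DZ minus LZ values reversed to 235.5 UMIs, 110.6 genes, -0.00378 in pc_markers, -0.00683 in Mo_CD34_SC and -0.00845 in Mo_Inmt_SC. Among adjoining spots they reversed to 19.5 UMIs, 52.1 genes, -0.000695 in Mo_CD34_SC and -0.00464 in Mo_Inmt_SC, and among spots touching only GC_B Border to -0.00160 and -0.00224 in these scores. Medians gave -0.00100 in Mo_CD34_SC and -0.00190 in Mo_Inmt_SC, percentile ranks -0.843 in Mo_GC_vs_Mem, the fit on log10 UMIs -0.00247 in Mo_Inmt_SC, and the lower piece 0.000794 in Mo_Nr4a1_SC. Leaving out each section gave -0.000773 to 0.000820 in Mo_Inmt_SC and -0.00146 to 3.09e-05 in Mo_Nr4a1_SC. With a rim of 2 steps, which leaves 14 usable interior spots and drops section C, rim minus interior became 1639 UMIs, 252.0 genes and 0.429 mitochondrial points. Medulla contact minus interior became 0.347 ribosomal points with log10 UMIs fitted. Medulla minus T contact in pc_markers, of no shared direction, became -0.0204 with medians, -1.09 on percentile ranks, -0.00667 with log10 UMIs fitted, -0.000561 with any contact and -0.00893 with 1 or 2 border neighbours, and ran from -0.00777 to 0.0201 without each section. The mitochondrial difference of large minus small patches, also of no shared direction, became -0.0229 on percentile ranks, -0.0160 with large set at 10 or more spots, -0.00137 among rim spots, -0.0896 among interior spots and -0.0558 in patches with both zones, and ran from -0.0715 to 0.151 without each section. For these reversals the cause was not tested. The minimum of 1000 UMIs removed 0 DZ spots, so comparisons within DZ were not rerun with it. The 4 sections limit every test. No paired analysis was possible because all sections belong to 1 group, so replicate numbers pair no groups; classes of spots were compared within sections throughout.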

Other observations

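The 60 DZ spots of patches without any LZ spot had a lower Mo_GC_vs_Mem score than DZ spots of mixed patches in each section, at 0.238 against 0.280 in A (7 spots), 0.257 against 0.273 in B (14), 0.234 against 0.265 in C (31) and 0.204 against 0.254 in D (8). Their pc_markers score was 0.265 against 0.141, 0.182 against 0.179, 0.145 against 0.139 and 0.198 against 0.142. Sections A and D, with the fewest such spots, showed the wide gaps in pc_markers. Their mitochondrial percentage was 3.61% against 3.92%, 3.22% against 3.44%, 2.51% against 2.59% and 2.90% against 3.19%, lower in each section. Of these 60 spots 8 were interior, all in sections C and D, against 175 of all 539 DZ spots. Rim DZ spots also had the lower Mo_GC_vs_Mem and the higher pc_markers, and the part of position in these gaps was not tested.

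DZ spots of the upper tissue piece had a higher mitochondrial percentage than those of the lower piece, by 0.318 ± 0.376 points in 4 of 4 sections, from 0.0723 in A to 0.872 in B. Mo_CD34_SC was higher there by 0.00325 ± 0.00255, also in 4 of 4, and the other 8 measures had no shared direction. It was assumed that upper and lower mean the same piece of tissue from section to section.

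Only 16 DZ spots lay 3 steps from the nearest border spot, against 159 at 2 steps and 364 at 1 step. These 16 spots had a pc_markers mean of 0.0732 and a ribosomal percentage of 17.6%, with 2 to 6 spots in a section.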
